A study of Mus musculus with 9 samples.

Results

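The genes described here are 6 subunits of the GABA-A receptor and gephyrin, 7 of the 37224 genes in a table of RNA-seq counts from mouse cells. They were taken by symbol: the alpha subunits Gabra2, Gabra3, Gabra4 and Gabra5, the beta subunits Gabrb1 and Gabrb2, and the scaffold gene Gphn. All 7 were found and all 7 passed the filter on low counts. Counts came from 3 groups of 3 libraries, all from C57BL/6 mice. iGABA cells were primary fibroblasts at 14 days of conversion toward GABAergic interneurons. They spent the first 2 days in fibroblast medium and were then moved to neuronal medium. The transcription factors known to have driven conversion in this study include Sox2, Dlx5 and Lhx6. GAD67 cells were interneurons taken directly from the cortex of E18.5 embryos, with GFP expressed from the Gad1 gene. Both kinds of cell were sorted for GFP, and the labels do not name the reporter that marked iGABA cells. MEF cells were primary fibroblasts at passage 0 from E13.5 embryos. They were trypsinised and not sorted, and their labels do not say whether a shift to neuronal medium came before RNA extraction.

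GABA-A receptors are chloride channels made of 5 subunits around a pore, most often alpha, beta and gamma subunits together. GABA binds between an alpha and a beta subunit, so a cell needs both classes to build the usual receptor, and the alpha subunit sets much of the channel's kinetics and place in the cell. Gephyrin forms the scaffold beneath inhibitory synapses, to which GABA-A and glycine receptors attach. In cells of every kind it also carries out the last step of molybdenum cofactor synthesis.

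The promoter stretches of 4 members are shown because these genes lay at opposite ends of the range described below. Gabra4 and Gabrb1 were highest in MEF cells, and Gabra2 and Gabrb2 were highest in GAD67 cells. Sequences are RefSeq's on GRCm38.p6 (mm10), read 5′ to 3′ on the gene's strand and limited to the longest run upstream of a start site that no GENCODE vM21 exon covers. The stretches are chr5:71095850-71096099, minus strand, for Gabra2, chr5:71658364-71658558, minus strand, for Gabra4, chr5:71699825-71699931, plus strand, for Gabrb1 and chr11:42420190-42420439, plus strand, for Gabrb2. By the positions used for counting, Gabrb2 begins at 42419757. Its stretch therefore lies inside the gene as counted, just upstream of a RefSeq start at 42420440. Capitals mark a TATAAA match.
Gabra2: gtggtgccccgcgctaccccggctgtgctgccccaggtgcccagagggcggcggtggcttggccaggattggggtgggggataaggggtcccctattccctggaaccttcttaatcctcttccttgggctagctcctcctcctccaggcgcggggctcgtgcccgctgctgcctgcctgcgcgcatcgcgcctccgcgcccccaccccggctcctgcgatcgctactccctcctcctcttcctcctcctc
Gabra4: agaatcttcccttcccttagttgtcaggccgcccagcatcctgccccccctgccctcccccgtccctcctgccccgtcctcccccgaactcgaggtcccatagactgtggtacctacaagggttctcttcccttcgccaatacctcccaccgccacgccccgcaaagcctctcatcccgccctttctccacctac
Gabrb1: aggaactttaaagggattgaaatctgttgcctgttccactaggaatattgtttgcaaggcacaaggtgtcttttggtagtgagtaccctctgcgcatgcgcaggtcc
Gabrb2: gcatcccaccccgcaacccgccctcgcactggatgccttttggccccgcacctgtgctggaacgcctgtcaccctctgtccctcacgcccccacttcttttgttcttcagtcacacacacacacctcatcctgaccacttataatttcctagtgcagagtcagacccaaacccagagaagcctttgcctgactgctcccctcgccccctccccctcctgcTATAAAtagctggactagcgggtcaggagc
RefSeq listed windows for all 7 members, some with several start sites. Each window of 300 bases was searched on both strands for TAATTA (a homeodomain core, the class of Dlx5 and Lhx6), ACAATG (a Sox-type site) and TATAAA. No member window held the homeodomain core, which 5.29% of all 32841 windows of that length held. The Gabra4 window held ACAATG outside the printed stretch, and 12.6% of all windows held it. TATAAA stood in both Gabra3 windows and in the Gabrb2 window shown, and in 13.6% of all windows. CG dinucleotides numbered 25 in the Gabra2 window, 12 in that of Gabra4, 13 in that of Gabra5, 42 in that of Gphn and 0 in both Gabra3 windows. Gabrb1 had 9 in the window shown and 25 in its other window. Gabrb2 had 11 in the window shown and 9 in each of its others. The median over all windows was 7 (quartiles 3 and 20). These are counts of letters and do not show binding or methylation.

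Libraries held 27501521 to 38975523 counts. Levels are given as normalised CPM, which are counts scaled to a common total after TMM scaling of the libraries. Replicate libraries differed by more than counting noise. The labels do not say whether they came from separate cultures or animals, so p-values measure the spread between these libraries, which may be technical. Summed GABAergic interneuron markers (8 genes) ranged from 677 to 690 CPM in iGABA, 4520 to 4740 in GAD67 and 8.49 to 10.1 in MEF libraries. Summed fibroblast markers (6 genes) ranged from 683 to 964 CPM in iGABA, 106 to 118 in GAD67 and 69100 to 76100 in MEF libraries, so the labels' cell types carried their defining markers. Other markers also moved with the groups. Those of glutamatergic cortical neurons (6 genes) summed to 272 to 282 CPM in iGABA, of which Eomes made up 273 ± 5.85 on average (SD, n = 3), 35.5 to 60.1 in GAD67 and 2.90 to 3.55 in MEF libraries, where Neurod2 and Neurod6 were at 0. Microglia and macrophage markers (6 genes) summed to 0.156 to 0.346 CPM in iGABA, with C1qa and Cx3cr1 at 0, 1.56 to 1.75 in GAD67 and 124 to 131 in MEF libraries. Endothelial markers (5 genes) summed to 1.98 to 4.72 CPM in iGABA, with Cdh5 at 0, 12.7 to 45.3 in GAD67 and 233 to 251 in MEF libraries, with Cldn5 at 0. Astrocyte and radial glia markers (5 genes) reached 4.85 to 6.75, 34.6 to 39.4 and 46.0 to 51.4 CPM in iGABA, GAD67 and MEF libraries. Skeletal muscle markers (5 genes) reached 4.92 to 5.52 CPM in iGABA, with Myog at 0, 15.8 to 17.2 in GAD67, with Myod1 at 0, and 50.3 to 51.3 in MEF libraries. The part of any of these cells in the receptor values was not tested. In RNA from pooled cells, fewer cells with a transcript and less transcript per cell cannot be told apart.

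The alpha subunits were tested first, with the question of how far converted cells resembled cortical interneurons and how far they had left the fibroblast level. In the fits below, edgeR's quasi-likelihood test was used, p-values were adjusted over 18085 genes by the Benjamini-Hochberg method, and a gene was called at an adjusted p under 0.05. The 3 comparisons share groups and are not independent of each other.

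Gabra2 encodes alpha2, a subunit prominent in the developing forebrain and later at synapses on the axon initial segment. Its level was 0.297, 0.501 and 0.313 CPM in iGABA replicates 4 to 6, 14.6, 14.4 and 15.5 CPM in GAD67 replicates 7 to 9, and 0.0732, 0.296 and 0.211 CPM in MEF replicates 1 to 3. GAD67 libraries were far above the other groups and differed little among themselves, while the lowest iGABA library and the highest MEF library lay side by side. iGABA cells were 39.2-fold lower than GAD67 cells (log2 fold change -5.29 ± 0.211 SE, adjusted p = 6.54e-11, edgeR). The log2 fold change of iGABA over MEF was 0.91 ± 0.398, just inside the threshold (adjusted p = 0.0495, edgeR). That call rested on 43 counts in iGABA and 18 in MEF libraries together. It was lost without MEF replicate 1 (adjusted p = 0.187), MEF replicate 3 (0.0874), iGABA replicate 5 (0.209) or any GAD67 replicate (0.0554 to 0.0629), so the level of Gabra2 in iGABA cells is not firmly separated from that in MEF cells.

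Gabra3 encodes alpha3, another subunit that is abundant in the forebrain before birth. It stood at 0.692, 0.669 and 1.0 CPM in iGABA, at 18.0, 20.0 and 13.9 CPM in GAD67 and at 2.23, 2.66 and 2.66 CPM in MEF libraries. No groups overlapped, and the order ran from iGABA, the lowest, through MEF to GAD67. The gene fell 3.25-fold in iGABA cells against MEF cells (log2 fold change -1.70 ± 0.222, adjusted p = 1.05e-05, edgeR). It was 22.3-fold lower in iGABA than in GAD67 cells (log2 fold change -4.48 ± 0.192, adjusted p = 1.35e-10, edgeR) and 6.85-fold higher in GAD67 cells than in MEF cells (log2 fold change 2.78 ± 0.167, adjusted p = 2.85e-09, edgeR).

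Gabra4 encodes alpha4, known for receptors outside synapses in thalamus and dentate gyrus. It had 1, 1 and 3 counts in iGABA libraries (0.0247, 0.0239 and 0.0938 CPM), against 1.25, 1.80 and 1.30 CPM in GAD67 and 2.78, 2.83 and 2.72 CPM in MEF libraries. The gene was close to undetected in converted cells, and fibroblasts had the most of it. Relative to MEF cells it fell 58.6-fold in iGABA cells (log2 fold change -5.87 ± 0.371, adjusted p = 6.98e-09, edgeR) and 1.91-fold in GAD67 cells (log2 fold change -0.93 ± 0.214, adjusted p = 0.00118, edgeR). Relative to GAD67 cells the level in iGABA cells was 30.7-fold lower (log2 fold change -4.94 ± 0.399, adjusted p = 9.18e-08, edgeR). The pooled counts, 5 in iGABA and 252 in MEF libraries, give a ratio of 0.0158 with an exact 95% interval of 0.00508 to 0.0373, which covers counting error only. Without iGABA replicate 6, which held 3 of those 5 counts, the log2 fold changes were -6.64 over MEF and -5.70 over GAD67.

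Gabra5 encodes alpha5, a subunit of receptors that carry tonic inhibition in the hippocampus. It read 0.223, 0.382 and 0.125 CPM in iGABA, 6.03, 7.50 and 3.19 CPM in GAD67, and 0, 0.0987 and 0 CPM in MEF libraries. The only MEF counts were 3 in replicate 2, and a library with 0 counts allows up to 0.110 CPM in MEF replicate 1 and 0.0906 in MEF replicate 3. With 29 counts in iGABA and 3 in MEF libraries, the ratio was 7.68 (exact 95% interval 2.38 to 39.4, counting error only), and edgeR called the rise at adjusted p = 0.0274. The call was lost without MEF replicate 1 (adjusted p = 0.0843), MEF replicate 3 (0.0990) or iGABA replicate 5 (0.0994). GAD67 cells had 170 times the MEF level (632 against 3 counts, interval 58.0 to 828, counting error only), and iGABA cells lay 21.9-fold below GAD67 cells (log2 fold change -4.45 ± 0.428, adjusted p = 5.45e-07, edgeR). Leaving out a library moved the fitted log2 fold change over MEF cells between 2.20 and 6.19 for iGABA (2.81 with all libraries) and between 6.67 and 10.65 for GAD67 cells (7.26 with all libraries). The lowest values came without MEF replicate 3 and the highest without MEF replicate 2, where the remaining MEF libraries had 0 counts and the fitted value is no measure of size. The GAD67 libraries themselves spread widely, replicate 9 having less than either other library, and the gene passed the filter only through GAD67 libraries.

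Gabrb1 encodes beta1. It measured 0.247, 0.143 and 0.563 CPM in iGABA, 0.613, 0.451 and 0.452 CPM in GAD67, and 4.25, 4.18 and 4.20 CPM in MEF libraries. MEF libraries agreed closely and lay above all others, while iGABA and GAD67 libraries overlapped. Its level was 13.8-fold lower in iGABA than in MEF cells (log2 fold change -3.79 ± 0.312, adjusted p = 1.09e-07, edgeR) and 8.25-fold lower in GAD67 than in MEF cells (log2 fold change -3.04 ± 0.287, adjusted p = 3.36e-07, edgeR). iGABA over GAD67 gave a log2 fold change of -0.74 with a 95% interval of -1.60 to 0.11 (adjusted p = 0.0992, edgeR), so the test did not separate these groups. Without iGABA replicate 6 it did, at -1.36 (adjusted p = 0.00425), and the change over MEF was then -4.40.

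Gabrb2 encodes beta2, which becomes the most common beta subunit of the mature brain. Readings were 0.445, 0.310 and 0.469 CPM in iGABA, 35.2, 38.1 and 25.6 CPM in GAD67, and 1.24, 1.41 and 1.27 CPM in MEF libraries. As with Gabra3, iGABA cells lay below fibroblasts and no groups overlapped. The difference between iGABA and GAD67 cells was 81.1-fold (log2 fold change -6.34 ± 0.206, adjusted p = 8.49e-12, edgeR), the widest among the members. Relative to MEF cells Gabrb2 was 3.23-fold lower in iGABA cells (log2 fold change -1.69 ± 0.287, adjusted p = 0.000118, edgeR) and 25.1-fold higher in GAD67 cells (log2 fold change 4.65 ± 0.179, adjusted p = 2.59e-11, edgeR).

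Gphn, the scaffold gene, was expressed in all 3 kinds of cell. Its level was 19.0, 18.4 and 17.1 CPM in iGABA, 49.2, 49.7 and 48.6 CPM in GAD67, and 17.4, 20.1 and 20.9 CPM in MEF libraries. iGABA and MEF libraries overlapped and GAD67 libraries stood above both. GAD67 cells had 2.52-fold more than MEF cells (log2 fold change 1.33 ± 0.0752, adjusted p = 1.46e-09, edgeR), and iGABA cells were 2.70-fold lower than GAD67 cells (log2 fold change -1.43 ± 0.0747, adjusted p = 1e-09, edgeR). For iGABA over MEF the log2 fold change was -0.10 with a 95% interval of -0.27 to 0.07 (adjusted p = 0.240, edgeR). That small difference depends on the scaling: with library size alone it was 0.32 (adjusted p = 0.00121), a scaling that moved the median of all genes to 0.463, against 0.0471 with TMM. Without MEF replicate 1, under TMM, it was -0.18 (adjusted p = 0.0395).

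**Figure D1:**
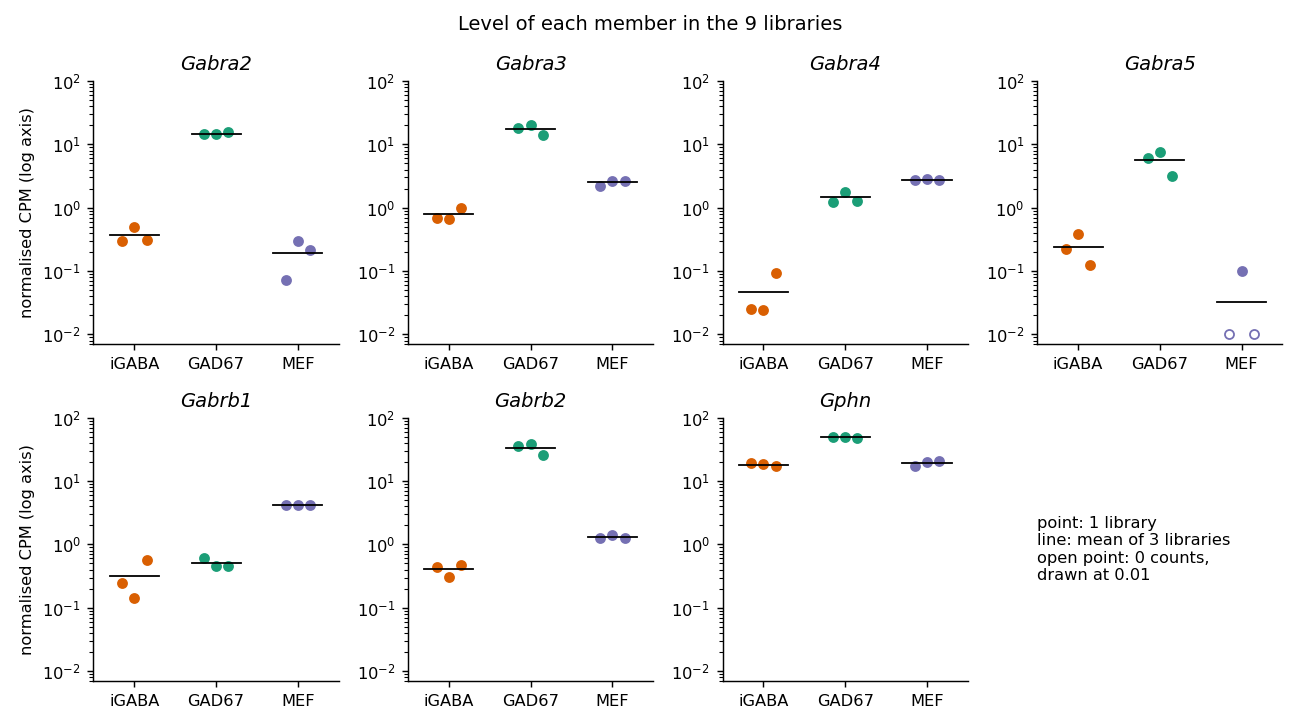
Normalised CPM (log axis) of the 7 members in each library, in columns for iGABA, GAD67 and MEF cells; points are libraries, lines are means of 3 and open points mark 0 counts, drawn at 0.01. Gabra4 and Gabrb1 are highest in MEF cells, and Gabra2, Gabra3, Gabra5, Gabrb2 and Gphn are highest in GAD67 cells.

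In the comparison of iGABA with MEF cells, edgeR called 2 of the 7 members higher (Gabra2 and Gabra5) and 4 lower (Gabra3, Gabra4, Gabrb1 and Gabrb2), with Gphn not called. Across all genes tested 81.9% were called, 42.1% higher and 39.7% lower, so the number of members called was close to the background. The median log2 fold change was -1.69 over the members and 0.0471 over all genes tested. Both rises were of genes with few counts, and both were lost when single libraries were left out, as given above. The 4 falls were called in each of the 14 alternatives run, including every omission of a library.

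In the comparison of GAD67 with MEF cells, 5 members were higher (Gabra2, Gabra3, Gabra5, Gabrb2 and Gphn) and 2 lower (Gabra4 and Gabrb1). Of all genes tested 86.9% were called, 43.1% higher and 43.8% lower. Gabra2 was 73.7-fold higher (log2 fold change 6.20 ± 0.243, adjusted p = 3.17e-11, edgeR). The median log2 fold change was 2.78 over the members and 0.0016 over all genes tested.

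In the comparison of iGABA with GAD67 cells, no member was higher and 6 were lower, Gabrb1 being the exception, and without iGABA replicate 6 Gabrb1 was called lower too. Among all genes tested 80.6% were called, 41.3% higher and 39.3% lower. The median log2 fold change was -4.48 over the members and 0.0221 over all genes tested. Mean levels in iGABA cells, as a percentage of those in GAD67 cells, were 1.24% for Gabrb2, 2.5% for Gabra2, 3.27% for Gabra4, 4.36% for Gabra5, 4.55% for Gabra3, 37.0% for Gphn and 62.9% for Gabrb1. The scaffold gene was thus nearer to the interneuron level than any of the 4 alpha subunits or Gabrb2. Gphn in MEF cells was at 39.6% of the GAD67 level, so for this gene converted cells were no nearer to it than fibroblasts.

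**Figure D2:**
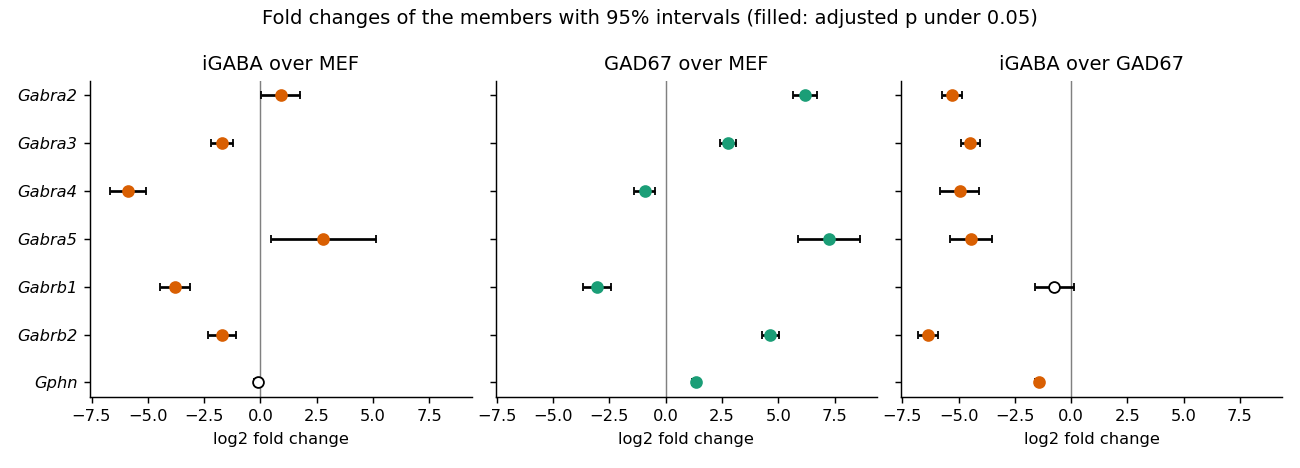
Log2 fold changes of the 7 members with 95% intervals from edgeR in iGABA over MEF, GAD67 over MEF and iGABA over GAD67 cells; filled points were called at an adjusted p under 0.05. Only Gphn in iGABA over MEF and Gabrb1 in iGABA over GAD67 are open.

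Levels of different genes were compared per length, as normalised CPM per kb of the exon length in the count table. That length held 22.3% of the GENCODE vM21 exon bases for Gabrb1, 31.3% for Gabra2, 67.8% for Gabra4 and 89.2% to 100% for the other members, so per-length levels of these 3 genes may depend on the annotation. Per kb, the largest mean among the 6 member subunits was Gabra3 in iGABA cells (0.201 ± 0.0471), Gabra2 in GAD67 cells (6.20 ± 0.237) and Gabrb1 in MEF cells (1.36 ± 0.0115; SD, n = 3 each). Summed over the 6 subunits, the level per kb was 0.542, 0.626 and 0.713 in iGABA, 19.1, 20.6 and 15.8 in GAD67, and 2.85, 3.10 and 2.99 in MEF libraries. Converted cells had the least transcript of these 6 genes. This order did not hold for the subunits as a whole: summed over all 19 subunit genes of the table, the level per kb was 11.8 ± 0.301 in iGABA, 61.5 ± 5.11 in GAD67 and 7.30 ± 0.319 in MEF cells (SD, n = 3), so iGABA cells lay above MEF cells. Divided by the level of Gphn per kb, the sum of the 6 was 0.118 ± 0.0225 in iGABA, 1.28 ± 0.157 in GAD67 and 0.522 ± 0.0350 in MEF cells, and that of all 19 was 2.20 ± 0.105 in iGABA, 4.25 ± 0.303 in GAD67 and 1.28 ± 0.183 in MEF cells (SD, n = 3).

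Among the 4 alpha members the mix differed between the groups too. Gabra2 held 33.3% ± 5.61 of their summed per-length level in iGABA, 48.0% ± 7.29 in GAD67 and 5.57% ± 2.91 in MEF cells (SD, n = 3). Gabra3 held 44.4% ± 11.9 in iGABA, 33.6% ± 2.46 in GAD67 and 45.6% ± 1.71 in MEF cells. The fibroblast mix was set apart by Gabra4, with 2.54% ± 2.14 in iGABA, 2.69% ± 0.380 in GAD67 and 48.1% ± 4.29 in MEF cells. Gabra5 held 19.7% ± 8.56 in iGABA, 15.7% ± 4.78 in GAD67 and 0.812% ± 1.41 in MEF cells. The mean alpha mix of iGABA cells was thus closer to that of GAD67 cells in Gabra2, Gabra4 and Gabra5, although its total was small. In iGABA libraries together it rested on 43 counts of Gabra2, 5 of Gabra4 and 29 of Gabra5. The Gabra5 share ran from 10.4% to 27.2% between iGABA libraries. Raw counts in place of per-length levels put Gabra3 above Gabra2 in GAD67 cells, at 44.0% and 38.4%. These shares were not tested.

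**Figure D3:**
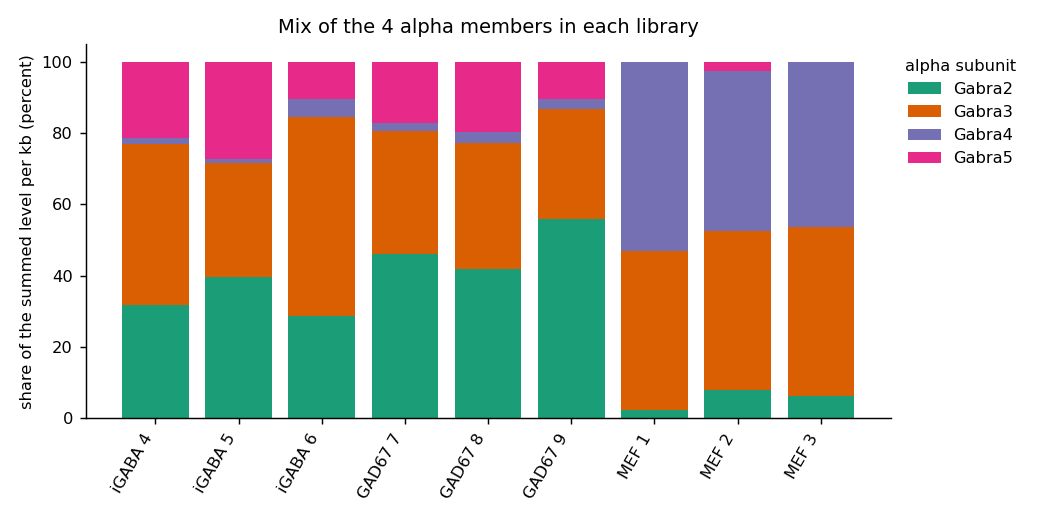
Share of Gabra2, Gabra3, Gabra4 and Gabra5 in their summed level per kb, in percent, as stacked bars for each of the 9 libraries, iGABA and GAD67 left of MEF. Gabra4 holds 45.0% to 53.0% of the sum in MEF libraries and at most 4.99% in the iGABA and GAD67 libraries.

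Gabra2, Gabra4 and Gabrb1 are neighbours on mouse chromosome 5, in a cluster with the gamma subunit gene Gabrg1. In mm10, by the positions of the count table, Gabrg1 (70751047 to 70842617), Gabra2 (ENSMUSG00000000560, 70961057 to 71095849) and Gabra4 (ENSMUSG00000029211, 71569734 to 71658308) lie on the minus strand, and Gabrb1 (ENSMUSG00000029212, 71699932 to 72138389) lies on the plus strand. Gabra4 and Gabrb1 point away from each other with start sites 41.6 kb apart. This pair had its highest level in MEF cells, while Gabra2, farther along, had its highest in GAD67 cells. Gabrg1 averaged 1.01 ± 0.176 CPM in iGABA, 0.734 ± 0.212 in GAD67 and 0.0332 ± 0.00322 in MEF cells (SD, n = 3), and iGABA over GAD67 was not called (log2 fold change 0.46, 95% interval -0.12 to 1.03, adjusted p = 0.129, edgeR). The cluster therefore held genes of different order across the 3 groups. RefSeq also lists a Gabrb1 start inside the Gabra4 gene. The strand setting of the counting is not given in the sources used here, so reads there could not be assigned to a strand, although the table's Gabrb1 exons begin beyond the end of Gabra4. The other members lie apart: Gabra3 (ENSMUSG00000031343) on chromosome X from 72432681 to 72656848, Gabra5 (ENSMUSG00000055078) on chromosome 7 from 57407690 to 57510009, Gabrb2 (ENSMUSG00000007653) on chromosome 11 from 42419757 to 42629028 and Gphn (ENSMUSG00000047454) on chromosome 12 from 78226655 to 78684767.

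**Figure D4:**
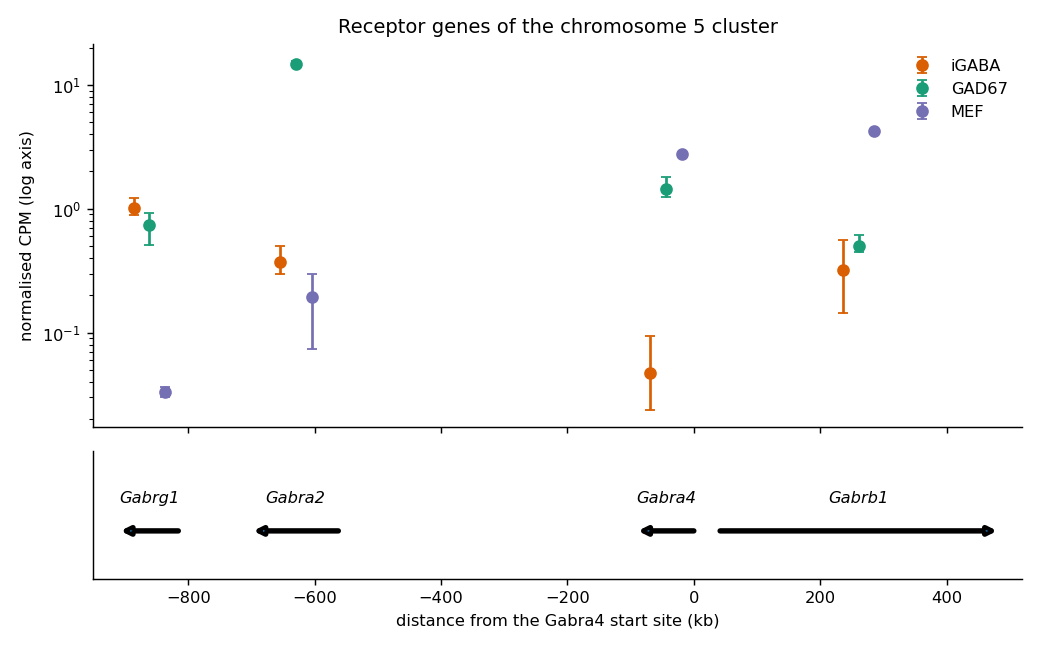
Mean normalised CPM (log axis) of 4 receptor genes in iGABA, GAD67 and MEF cells, with bars from the lowest to the highest of 3 libraries, above arrows for each gene's extent and direction by distance from the Gabra4 start site in kb. MEF cells are highest at Gabra4 and Gabrb1 and lowest at Gabrg1 and Gabra2.

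The other 13 subunit genes of the table included 9 that passed the filter. For comparison, the shares of all genes tested called higher and lower were 42.1% and 39.7% in iGABA over MEF. They were 43.1% and 43.8% in GAD67 over MEF, and 41.3% and 39.3% in iGABA over GAD67. In iGABA over MEF 4 were higher, 2 lower and 3 not called. In GAD67 over MEF 7 were higher, 1 lower and 1 not called, and in iGABA over GAD67 1 was higher, 6 lower and 2 not called. Gabrg1 had 116 counts in iGABA and 3 in MEF libraries, a ratio of 30.7 (exact 95% interval 10.3 to 151, counting error only). Gabrg3 had 4 counts in iGABA and 4 in MEF libraries, but averaged 14.1 ± 2.63 CPM in GAD67 cells. Gabre, the epsilon subunit gene, averaged 0.418 ± 0.191 CPM in iGABA, 0.0970 ± 0.0383 in GAD67 and 10.2 ± 2.14 in MEF cells. Among the 9 tested it was the only subunit called higher in iGABA than in GAD67 cells (log2 fold change 2.01 ± 0.525, adjusted p = 0.00333, edgeR), and it fell 24.9-fold in iGABA against MEF cells (adjusted p = 3.05e-09, edgeR). The call over GAD67 cells rested on 46 counts in iGABA and 11 in GAD67 libraries. Gabrr1, not tested and named after its values were seen, had 22 counts in iGABA, 4 in GAD67 and 0 in MEF libraries.

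Genes that organise inhibitory synapses around gephyrin were a list of 9, all tested. In iGABA over MEF 6 were higher, 2 lower and 1 not called; in GAD67 over MEF 8 were higher and 1 lower; in iGABA over GAD67 1 was higher and 8 lower. Of all genes tested, 42.1% were higher and 39.7% lower in iGABA over MEF, and 43.1% and 43.8% in GAD67 over MEF. In iGABA over GAD67 the shares were 41.3% and 39.3%. The median log2 fold changes of the list were 0.571, 2.44 and -1.94. Shisa7, an accessory protein of the receptor, averaged 58.7 ± 3.995 CPM in iGABA, 98.1 ± 7.33 in GAD67 and 0.112 ± 0.0521 in MEF cells (SD, n = 3), a 517-fold rise in iGABA over MEF cells (adjusted p = 4.75e-14, edgeR). Lhfpl4, which links the receptor to neuroligin 2, averaged 55.6 ± 5.21 CPM in iGABA, 223 ± 14.4 in GAD67 and 2.09 ± 0.273 in MEF cells and was 26.5-fold higher in iGABA than in MEF cells (adjusted p = 3.89e-13, edgeR). Nlgn2, which encodes neuroligin 2, averaged 520 ± 17.9 CPM in iGABA, 606 ± 14.8 in GAD67 and 239 ± 19.6 in MEF cells and rose 2.18-fold (adjusted p = 3.20e-09, edgeR). These partners of the receptor were thus higher in converted cells than in fibroblasts while Gabra3, Gabra4, Gabrb1 and Gabrb2 were lower. Slitrk3, an adhesion gene of inhibitory synapses, did not follow them, with 0.0904 ± 0.136 CPM in iGABA, 88.9 ± 13.2 in GAD67 and 0.135 ± 0.0780 in MEF cells. Dag1, which encodes dystroglycan, fell 2.07-fold in iGABA against MEF cells (151 ± 3.28 CPM in iGABA, 82.6 ± 2.79 in GAD67, 313 ± 14.9 in MEF; adjusted p = 6.81e-10, edgeR).

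Of 9 genes for trafficking of the receptor, 4 were higher, 3 lower and 2 not called in iGABA over MEF, 4 higher and 5 lower in GAD67 over MEF, and 5 higher, 2 lower and 2 not called in iGABA over GAD67. The shares of all genes tested called higher and lower were 42.1% and 39.7%, 43.1% and 43.8%, and 41.3% and 39.3%. Counts from 9 genes were thus close to the background. Hap1, which promotes recycling of the receptor to the surface, averaged 113 ± 5.67 CPM in iGABA, 46.3 ± 6.67 in GAD67 and 2.17 ± 0.304 in MEF cells (SD, n = 3), and was 52.4-fold higher in iGABA than in MEF cells (adjusted p = 3.34e-13, edgeR). Arfgef2, whose product binds beta subunits, averaged 101 ± 2.31 CPM in iGABA, 26.9 ± 3.27 in GAD67 and 82.1 ± 5.23 in MEF cells, 3.74-fold higher in iGABA than in GAD67 cells (adjusted p = 1.35e-10, edgeR). Gabarap, which binds the receptor and serves in autophagy, averaged 248 ± 5.75 CPM in iGABA, 174 ± 4.03 in GAD67 and 474 ± 24.5 in MEF cells and fell 1.91-fold in iGABA against MEF cells (adjusted p = 3.01e-09, edgeR). Its relative Gabarapl1 averaged 153 ± 5.89 CPM in iGABA, 182 ± 1.37 in GAD67 and 143 ± 10.2 in MEF cells, and Ubqln1, which stabilises subunits, averaged 190 ± 7.33, 181 ± 10.1 and 209 ± 9.62 CPM in iGABA, GAD67 and MEF cells. The Ubqln1 changes against MEF cells (log2 fold change -0.14 in iGABA, -0.21 in GAD67) took the opposite sign with library size alone, at 0.28 and 0.02, and the iGABA call was lost without MEF replicate 2 or 3, any iGABA replicate or GAD67 replicate 7 (adjusted p 0.0621 to 0.183).

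Glycine receptors share the gephyrin scaffold, and 2 of their 5 subunit genes passed the filter. Glra2, the alpha subunit of the embryonic brain, had 6 counts in iGABA and 2 in MEF libraries, against 40.8 ± 4.71 CPM in GAD67 cells (SD, n = 3). Its level in iGABA was 727-fold below GAD67 cells (log2 fold change -9.51 ± 0.211, adjusted p = 2.34e-13, edgeR), a gap in the same direction as that of the alpha members. Glrb, the subunit that binds gephyrin, averaged 3.73 ± 0.486 CPM in iGABA, 14.6 ± 0.874 in GAD67 and 34.9 ± 1.85 in MEF cells and was lower in iGABA than in MEF cells by 9.43-fold (adjusted p = 7.96e-12, edgeR). Glra4 was not tested, with 4 counts in iGABA, 1 in GAD67 and 0 in MEF libraries.

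The other genes of molybdenum cofactor synthesis, and the enzymes that use the cofactor, were a list of 6, all tested. In iGABA over MEF 1 was higher, 2 lower and 3 not called, in GAD67 over MEF 1 was higher, 4 lower and 1 not called, and in iGABA over GAD67 3 were higher, 1 lower and 2 not called. The shares of all genes tested called higher and lower were 42.1% and 39.7%, 43.1% and 43.8%, and 41.3% and 39.3%. Mocs2, a molybdopterin synthase gene, was nearly level at 29.3 ± 1.27 CPM in iGABA, 28.9 ± 0.696 in GAD67 and 27.4 ± 1.18 in MEF cells (SD, n = 3), and was called in no comparison. Mocs1, which acts first in the pathway, averaged 21.5 ± 1.06 CPM in iGABA, 9.69 ± 0.788 in GAD67 and 24.7 ± 1.85 in MEF cells. Its small fall in iGABA against MEF cells (log2 fold change -0.20, adjusted p = 0.0440, edgeR) was 0.21 with library size alone and was not called without MEF replicate 2 or 3, iGABA replicate 4 or 5 or GAD67 replicate 7 (adjusted p 0.0568 to 0.164). Suox, sulphite oxidase, averaged 20.0 ± 0.832 CPM in iGABA, 5.88 ± 1.64 in GAD67 and 19.9 ± 2.44 in MEF cells, 3.41-fold higher in iGABA than in GAD67 cells (adjusted p = 2.49e-07, edgeR). Aox1, aldehyde oxidase, was 9.08-fold higher in iGABA than in GAD67 cells (6.98 ± 1.16 CPM in iGABA, 0.760 ± 0.193 in GAD67, 3.71 ± 0.580 in MEF; adjusted p = 1.31e-08, edgeR). Xdh, xanthine dehydrogenase, had 5 counts in iGABA and 6 in GAD67 libraries, against 6.29 ± 1.27 CPM in MEF cells. Against GAD67 cells, iGABA cells thus had less Gphn and more Mocs1, Suox and Aox1, while Mocs3, another synthesis gene, named after its values were seen as the list's only lower call, had 6.69 ± 0.314 CPM in iGABA and 8.83 ± 0.503 in GAD67 cells (log2 fold change -0.40, adjusted p = 0.00814, edgeR).

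**Figure D5:**
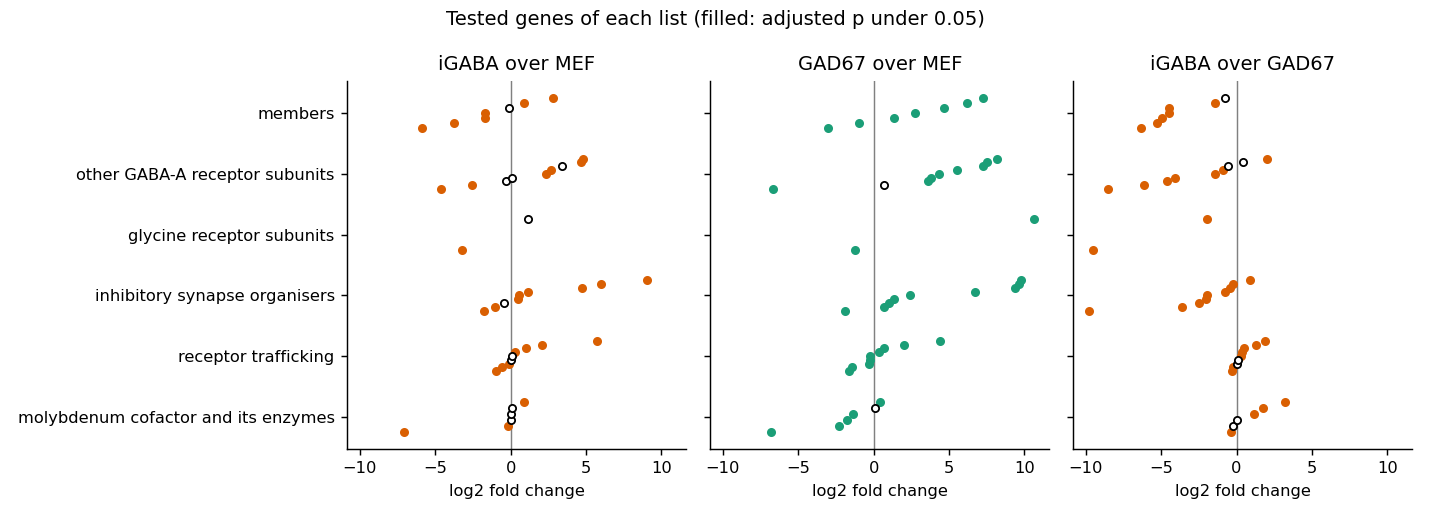
Log2 fold changes of each tested gene of the members and of 5 pathway lists (rows) in iGABA over MEF, GAD67 over MEF and iGABA over GAD67 cells (panels); filled points were called at an adjusted p under 0.05. In iGABA over GAD67 cells no member lies to the right of 0, while 5 of 9 trafficking genes were called higher, against 41.3% of all genes tested.

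To find genes with a like pattern, log2 CPM (prior count 2) was centred per gene. The root mean square distance over the 9 libraries was then taken to each tested gene that had a symbol. Gabra3 was nearest to Sh3rf3 (distance 0.172) and Lrrn3 (0.199), and Gphn to Kdm1a (0.0585) and the gene model Gm10052 (0.0590). Gabra4 was nearest to Prkd1 (0.268) and Sgk1 (0.282), Gabrb1 to Ighm (0.282) and Chst3 (0.298), and Gabrb2 to Rims1 (0.333) and St8sia4 (0.337). Gabra2 was nearest to Pnma3 (0.337) and Cntn5 (0.366), and Gabra5 to Cadps2 (0.407) and Adra1a (0.424). These genes were picked from those with a symbol among the 18085 tested and the nearest members from only 7, so the distances of genes and members cannot be compared. Among the members, Gabra2 and Gabra5 (0.648), Gabra3 and Gabrb2 (0.861), and Gabra4 and Gabrb1 (1.34) were each other's nearest member. The member nearest to Gphn was Gabra3 (1.22). In the first pair Gabra2 and Gabra5 were high in GAD67 cells and near the floor elsewhere, in the second Gabra3 and Gabrb2 were lowest in iGABA cells, and in the third Gabra4 and Gabrb1 were highest in MEF cells.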

How the data were processed

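The deposited table holds raw read counts per gene, with no normalisation. The submitters' processing notes name mm10, featureCounts, BWA 0.7.2 and DESeq 1.10.1 for the authors' work. What each tool did, in which order, with which annotation release and strand setting is not given in the sources used here. Libraries were made by a strand-marking dUTP method, per the labels' protocols. Symbols came from GENCODE vM21 for 35449 of 37224 genes.

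Of the genes, 18085 passed edgeR's filterByExpr (at least 10 counts, at least 15 in total). Counts were scaled by TMM and tested in R 4.3.3 with edgeR 4.0.16 in 1 quasi-likelihood fit over 9 libraries (group as the only term, common BCV 7.91%). A gene rose, fell or was called at an adjusted p under 0.05. SE and 95% intervals came from the F statistic. The procedure was also run on simulated data in which few genes changed and all shared the common BCV. In the real data most genes were called, so that run does not show how the procedure handles changes this widespread. Gabra2 reached the filter's level in iGABA and GAD67 libraries and in no MEF library, and Gabra5 in all 3 libraries of GAD67 only.

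Alternatives were edgeR with RLE size factors or library size alone, no filter, only the 2 groups compared, DESeq2 1.42.0, and each library left out. Summed levels, with their alternatives, were added after seeing the data. Members and lists were chosen with earlier results of these data known. Within each list the text names the 3 genes with the highest level per length in any group and the called gene with the largest change in each comparison; some genes that this rule picked are not reported here. Nearest genes are the 2 at the smallest distance among tested genes with a symbol. The range of total counts per library, which set the precision of low values, is in the report. Intervals on pooled counts and the floor of 3 counts cover counting error only, since PCR copies are not independent molecules.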

Additional observations from a re-analysis of the deposited data

How the results depend on the processing

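No paired analysis was made, since the labels state no pairing between libraries of the 3 groups. The replicate numbers run on from group to group and do not show whether groups shared a source. For the members, 279 of 293 values under an alternative kept direction and side of the threshold, 11 lost their call, 2 gained one and 1 reversed. Of 919 values of the other genes that the naming rule picked, 879 kept both. Members called higher in iGABA over MEF numbered 2, against 1 with RLE size factors, 0 with only the 2 groups compared (where Gabra5 was not tested), and 0 to 2 when each library was left out in turn; all member counts in the other directions and comparisons stayed within 1.5 times. With library size alone, calls in iGABA over MEF were 65.3% higher, against 51.5% with TMM, and the median log2 fold change over the genes tested was 0.463. The calls in iGABA over GAD67 were 58.7% higher against 51.2%, with a median of 0.215, and in GAD67 over MEF the median was 0.224.

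Reversed log2 fold changes in iGABA over MEF under library size alone were 0.32 for Gphn, 0.28 for Ubqln1, 0.21 for Mocs1 and 0.082 for Gabrg3; Ubqln1 in GAD67 over MEF was 0.017. Suox in iGABA over MEF was -0.036 with RLE and -0.035 with DESeq2. Leaving out each library in turn gave -0.10 to 0.063 for Suox, -0.79 to 0.31 for Gabrg3 and -2.98 to 0.060 for Slitrk3 in iGABA over MEF, the last called lower without iGABA replicate 4, and -0.82 to 3.72 for Xdh in iGABA over GAD67. The cause of these changes was not tested. Depth limits Gabra2, Gabra4, Gabra5, Gabrb1 and Gabrb2 in iGABA and Gabra2 and Gabra5 in MEF cells, where a library held at most 21 counts.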
